A study of Homo sapiens with 12 samples.

Results

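Most of the genes described here activate fatty acids to acyl-CoA or attach acyl chains to phospholipids. They are the acyl-CoA synthetases ACSL1, ACSL3 and ACSL4 and the lysophospholipid acyltransferases LPCAT1, LPCAT3, LPCAT4, MBOAT1, MBOAT2 and MBOAT7. The last gene is AGPS, an enzyme of ether lipid synthesis. All were taken by symbol from a gene-level count table of 36459 symbols. All 10 were found, and all 10 passed the filter on low counts together with 14209 genes in all. RNA was sequenced in 12 libraries from HEK293, a line of human embryonic kidney cells. The cultures received oleic acid with ferric ammonium citrate (FAC, an iron salt), oleic acid alone, FAC alone or vehicle, with 3 libraries a group. The stated purpose was to see how an oleic acid supplement acts on ferroptosis, an iron-dependent cell death, brought about by FAC. The sources used here give neither doses nor times, and do not say whether the numbered replicates were separate cultures, so that p-values measure the spread between these libraries only.

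A free fatty acid is first joined to coenzyme A by an acyl-CoA synthetase. A lysophospholipid acyltransferase then moves the acyl chain onto a phospholipid that has lost one, in the deacylation and reacylation round known as the Lands cycle. Polyunsaturated chains in membrane phospholipids are the substrate of the lipid peroxidation that drives ferroptosis, whereas oleic acid, a monounsaturated fatty acid, resists it. ACSL4, LPCAT3 and MBOAT7 handle mainly polyunsaturated chains, ACSL3, MBOAT1 and MBOAT2 mainly monounsaturated ones, and LPCAT1 mainly saturated ones in phosphatidylcholine.

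LPCAT1 and LPCAT4 are the genes the results turn on, and the DNA upstream of their outermost annotated starts is shown as their sequence context. The sequences are from RefSeq (GRCh38.p14), on the minus strand, 5′ to 3′, from chr5:1523978-1524210 (233 bases, 77.7% GC) for LPCAT1 and chr15:34367279-34367446 (168 bases, 78.0% GC) for LPCAT4. Capitals mark GGGCGG on either strand, the GC box bound by Sp1 family factors.
LPCAT1: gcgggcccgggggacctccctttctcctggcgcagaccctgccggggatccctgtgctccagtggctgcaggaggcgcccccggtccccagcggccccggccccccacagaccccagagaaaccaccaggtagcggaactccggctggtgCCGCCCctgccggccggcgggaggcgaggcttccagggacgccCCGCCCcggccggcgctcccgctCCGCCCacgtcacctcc
LPCAT4: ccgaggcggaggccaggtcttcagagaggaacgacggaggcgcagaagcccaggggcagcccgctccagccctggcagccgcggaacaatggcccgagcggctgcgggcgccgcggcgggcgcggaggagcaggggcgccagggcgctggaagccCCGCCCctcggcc
The GC box occurred 3 times in the LPCAT1 sequence and 1 time in that of LPCAT4. In the 250 bases before the RefSeq start it was found in 42.5% of 34943 promoters, and in at least 1 window of each of the 9 genes with a RefSeq promoter entry (MBOAT1 had none). These 250 bases, which run past the printed stretch into the annotated gene, held 3 GC boxes for LPCAT1 and 4 for LPCAT4. They also held 1 antioxidant response element TGACNNNGC for LPCAT4 and 0 for LPCAT1 (10.9% of promoters). The sterol regulatory element TCACNCCAC (0.881% of promoters), the CCAAT box (32.0%) and the E box CACGTG (6.32%) were found for neither gene. Both strands were searched for each, and a match describes letters only.

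Library totals ran from 14098216 to 18717397 estimated counts, and a count of 0 allows up to 3 counts, or 0.160 to 0.213 CPM (counts relative to the library total, TMM-scaled in all values below), for counting error only. This floor itself is not TMM-scaled, and the markers below were held against its highest value, 0.213. Replicates of a group always differed beyond counting noise (chi-square per degree of freedom 8.14 to 122). The iron treatment showed in TFRC, the transferrin receptor, which cells lower when iron is plentiful: it averaged 14.6 ± 1.57 CPM with oleic acid + FAC, 103 ± 39.6 with oleic acid, 19.5 ± 2.62 with FAC and 122 ± 10.6 with vehicle (SD, n = 3 each). PLIN2, a lipid droplet coat protein, averaged 16.1 ± 1.08, 18.2 ± 1.14, 9.47 ± 0.768 and 15.5 ± 0.744 CPM in the same order. PLIN2 fell with FAC against vehicle (log2 fold change -0.71, adjusted p = 0.0146). It did not pass for oleic acid, with 0.23 against vehicle (adjusted p = 1.00) and 0.50 averaged over both FAC states (adjusted p = 0.688). Its largest rise with oleic acid, 0.76 (SE 0.121), was in oleic acid + FAC against FAC. There its adjusted p of 0.406 did not pass either, but equalled the smallest over all genes tested. All 4 epithelial markers were above the floor in at least 1 library, summing to 134 to 285 CPM over the libraries. All 4 endothelial markers were too, summing to 0.994 to 2.05 CPM. So were 2 of 4 fibroblast markers (list sum 9.71 to 18.3 CPM) and 2 of 4 proximal tubule markers (2.99 to 12.2). In blood 3 of 4 were (0.551 to 2.41) and in hepatocytes 1 of 4 (0 to 0.454). The proximal tubule transporters SLC34A1 and SLC22A6, the hepatocyte marker SERPINA1 and the red cell marker HBB were listed at 0. In replicate 3 of oleic acid and replicate 3 of oleic acid + FAC, long transcripts were underrepresented (correlation of deviation from the group mean with log2 transcript length across genes -0.49 and -0.36, against -0.20 to 0.33 in the other libraries), and the mitochondrial share of counts was 12.1% in replicate 3 of oleic acid + FAC, against 3.33% to 7.50% elsewhere. In bulk RNA, fewer cells of a kind and less RNA per cell cannot be told apart.

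Per transcript length, LPCAT1 was the highest of the 10 genes in vehicle cultures and MBOAT1 the lowest. LPCAT1 averaged 144 TPM (counts per transcript length, scaled to a common total), above 93.3% of the genes tested that have a length. MBOAT7, which puts arachidonic acid on phosphatidylinositol, followed at 38.3 TPM, then ACSL3 at 31.3, AGPS at 29.2, ACSL1 at 23.5, LPCAT3 at 23.1, ACSL4 at 16.8, MBOAT2 at 13.4, LPCAT4 at 11.7 and MBOAT1 at 5.03 TPM. The 3 vehicle libraries separated LPCAT1 from MBOAT7, AGPS from ACSL1, ACSL4 from MBOAT2 and LPCAT4 from MBOAT1. The other neighbours in this order overlapped. The length used for LPCAT1 rests on its transcripts that have an annotated length, which hold 19.7% to 41.9% of its count.

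LPCAT1 was higher in every library given oleic acid than in any without it. It is the acyltransferase that returns saturated chains to lysophosphatidylcholine and is best known from lung surfactant. LPCAT1 (chr5:1456480-1523977, minus strand, GRCh38) had 477, 362 and 416 CPM with oleic acid + FAC and 457, 330.3 and 367 CPM with oleic acid. It had 306, 234 and 247 CPM with FAC and 312, 252 and 236 CPM with vehicle. The lowest library given oleic acid had 330.3 CPM and the highest without it 312 CPM. Averaged over both FAC states, the log2 fold change with oleic acid was 0.60 (SE 0.116, 95% interval 0.35 to 0.85, unadjusted p = 1.9e-04 in the quasi-likelihood test of edgeR), and LPCAT1 ranked 2 of 14209 genes by p. Only 8 genes, or 0.0563% of those tested, had all 6 libraries given oleic acid above all 6 without it. LPCAT1 was among genes chosen with earlier results of these data known, so its rank and this share are no independent support.

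This difference did not pass the adjustment over all genes (adjusted p = 0.688), and no gene did: edgeR called 0% of genes for oleic acid averaged over both FAC states, with 617 at an unadjusted p under 0.05, and limma-voom called 0. DESeq2 called 3 genes, 0.0137% of the 21902 it adjusted over, and LPCAT1 was among them (0.60, adjusted p = 0.00872). With the replicate number as a block, edgeR called LPCAT1 alone (0.60, adjusted p = 0.0125). The log2 fold change was 0.61 without replicate 3 of oleic acid and of oleic acid + FAC. With oleic acid + FAC against FAC it was 0.67 (SE 0.165, adjusted p = 0.707), and with oleic acid against vehicle 0.53 (SE 0.164, adjusted p = 1.00). The difference between these effects was 0.14 (SE 0.232, adjusted p = 1.00), with an interval from -0.36 to 0.65. FAC averaged over both oleic acid states gave 0.05 (SE 0.116, adjusted p = 0.839).

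The transcripts behind the LPCAT1 count differed between libraries. ENST00000283415.4, the annotated mRNA, and ENST00000611696.3, which carries the LPCAT1 symbol but lies off the primary assembly, together had 428, 276 and 124 CPM with oleic acid + FAC, 415, 293 and 181 CPM with oleic acid, 282, 218 and 202 CPM with FAC and 286, 215 and 214 CPM with vehicle. They were highest in replicate 1 of both oleic acid groups, within the range of the libraries without oleic acid or just above it in replicate 2, and lowest of all in replicate 3, the libraries short of long transcripts. The other LPCAT1 transcripts, led by the processed transcript ENST00000503252.1 and a copy of it with identical counts, had 48.9, 85.8 and 293 CPM with oleic acid + FAC, 41.7, 37.6 and 185 CPM with oleic acid, 24.2, 15.8 and 45.9 CPM with FAC and 26.3, 37.4 and 22.6 CPM with vehicle. Counting the 2 leading transcripts, ENST00000283415.4 and ENST00000611696.3, alone was a choice made after their values were seen. The log2 fold change with oleic acid over both FAC states was then 0.28 (adjusted p = 0.712), against 0.60 for the whole gene. With the replicate block in edgeR, these 2 transcripts gave 0.24 for oleic acid against vehicle (adjusted p = 0.997). For oleic acid + FAC against FAC they gave 0.11 (adjusted p = 0.812). How reads were assigned among overlapping transcripts carries an error that the counts do not give, and the part of transcript length in this split was not tested.

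**Figure D1:**
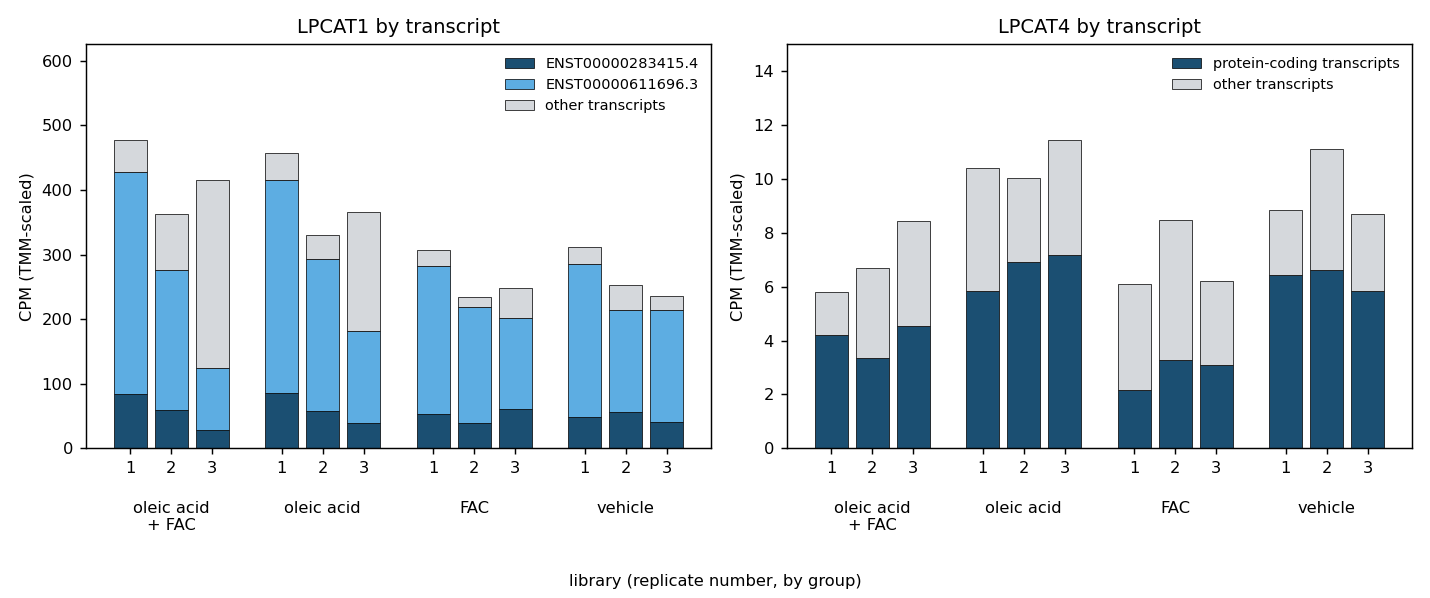
Estimated counts of LPCAT1 (left) and LPCAT4 (right) in CPM for each of the 12 libraries, stacked by transcript, with groups from left to right oleic acid + FAC, oleic acid, FAC and vehicle. The LPCAT1 total is above 330 CPM in every library given oleic acid, with the grey transcripts reaching 293 and 185 CPM in replicate 3 of oleic acid + FAC and of oleic acid; the protein-coding part of LPCAT4 is lowest in the FAC libraries.

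FAC went with less LPCAT4, an acyltransferase of lysophosphatidylethanolamine and lysophosphatidylcholine, the one gene of the 10 that passed the test. LPCAT4 (chr15:34358618-34367278, minus strand, GRCh38) had 5.82, 6.70 and 8.45 CPM with oleic acid + FAC, against 10.4, 10.0 and 11.4 CPM with oleic acid. It had 6.11, 8.48 and 6.21 CPM with FAC, against 8.83, 11.1 and 8.70 CPM with vehicle. All 6 libraries given FAC were below all 6 without it, though the gap from 8.48 to 8.70 CPM was narrow. Averaged over both oleic acid states it fell by 0.53 on the log2 scale (SE 0.134, adjusted p = 0.0266), when 8.76% of all genes tested were called, 5.48% as lower and 3.27% as higher, and 4.04% had their 6 libraries given FAC wholly below the other 6.

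The call for LPCAT4 was near the threshold: its adjusted p ranged from 0.0150 to 0.0791 when single libraries were left out, and it was not passed without replicate 1 or 2 of oleic acid + FAC, replicate 1 of oleic acid, replicate 1 or 3 of FAC or replicate 2 of vehicle (6 of 12 fits), with a log2 fold change between -0.62 and -0.47 in all 12. Within each state it missed the threshold, with -0.61 for oleic acid + FAC against oleic acid (SE 0.190, adjusted p = 0.128) and -0.46 for FAC against vehicle (SE 0.189, adjusted p = 0.333). The difference between these effects was -0.15 (SE 0.267, adjusted p = 1.00). Oleic acid averaged over both FAC states gave 0.08 (SE 0.134, adjusted p = 0.834).

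The protein-coding transcripts of LPCAT4, chosen after their values were seen, were lower in every library given FAC than in any without it. They had 4.19, 3.35 and 4.54 CPM with oleic acid + FAC, against 5.84, 6.92 and 7.17 CPM with oleic acid, and 2.15, 3.26 and 3.10 CPM with FAC, against 6.42, 6.60 and 5.84 CPM with vehicle. The highest library given FAC had 4.54 CPM and the lowest without it 5.84 CPM. These transcripts made up 58.6% ± 11.8 of the gene count with oleic acid + FAC, 62.6% ± 6.40 with oleic acid, 41.2% ± 7.80 with FAC and 66.4% ± 6.70 with vehicle (SD, n = 3 each), and the shares overlapped between oleic acid + FAC and oleic acid. Counting them alone, a choice made after their values were seen, the log2 fold change was -0.93 for FAC averaged over both oleic acid states (adjusted p = 0.00210) and -1.14 for FAC against vehicle (adjusted p = 0.0207). For oleic acid + FAC against oleic acid it was -0.72 and did not pass (adjusted p = 0.0929). How many genes lie apart in this way by their protein-coding transcripts was not counted. Every other gene kept its whole count, so these adjusted p-values do not cover the choice of the protein-coding LPCAT4 transcripts. The rest, retained-intron and other transcripts, had 1.63 to 3.90 CPM with oleic acid + FAC, 3.11 to 4.55 with oleic acid, 3.10 to 5.21 with FAC and 2.41 to 4.51 with vehicle, which overlapped. The libraries held between 33 and 129 protein-coding LPCAT4 counts each, so these splits rest on few reads.

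Of the enzymes for monounsaturated chains, none passed the test for FAC or for oleic acid. ACSL3 (chr2:222860934-222944639, plus strand), which activates oleic acid and sits on forming lipid droplets, had 83.9, 74.0 and 69.3 CPM with oleic acid + FAC, 70.0, 76.9 and 57.6 CPM with oleic acid, 74.3, 90.3 and 78.2 CPM with FAC and 68.9, 76.6 and 65.5 CPM with vehicle. The libraries with and without FAC overlapped, and the log2 fold change for FAC averaged over both oleic acid states was 0.18 (SE 0.0927, adjusted p = 0.272). With oleic acid averaged over both FAC states it was -0.07 (SE 0.0927, adjusted p = 0.782). MBOAT2 (chr2:8852690-9003813, minus strand), which acylates lysophosphatidylethanolamine with oleic acid, stayed between 37.1 and 51.9 CPM in all 12 libraries. Its log2 fold changes were -0.03 with FAC (adjusted p = 0.889) and -0.14 with oleic acid (adjusted p = 0.688).

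MBOAT1 (chr6:20102145-20212399, minus strand), a related acyltransferase with the same preference, was the lowest and the most uneven of the 10. It had 4.54, 4.31 and 2.34 CPM with oleic acid + FAC, 5.96, 3.86 and 1.64 CPM with oleic acid, 5.53, 5.74 and 5.55 CPM with FAC and 4.08, 5.44 and 4.74 CPM with vehicle. Its lowest values were those of replicate 3 of oleic acid and of oleic acid + FAC, with 22 and 33 counts. Averaged over both FAC states its log2 fold change with oleic acid was -0.44 (SE 0.255, interval -0.99 to 0.11, adjusted p = 0.688), which leaves room for a decrease to nearly 1 log2 unit.

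The enzymes for polyunsaturated chains did not pass either. ACSL4 (chrX:109624244-109733403, minus strand), which activates arachidonic and adrenic acid and is needed for ferroptosis in many cell lines, had 45.6, 50.8 and 43.1 CPM with oleic acid + FAC, 46.8, 47.1 and 30.9 CPM with oleic acid, 51.8, 59.3 and 47.4 CPM with FAC and 41.8, 49.1 and 43.2 CPM with vehicle. Averaged over both oleic acid states its log2 fold change with FAC was 0.20 (SE 0.112, interval -0.04 to 0.44, adjusted p = 0.303), and 0.11 without replicate 3 of oleic acid. With oleic acid it was -0.14 (SE 0.112, adjusted p = 0.691), and the low value lay in replicate 3 of oleic acid. LPCAT3 (chr12:6976186-7018510, minus strand), which puts arachidonic and linoleic acid into phosphatidylcholine and phosphatidylethanolamine, stayed between 21.3 and 31.3 CPM, with log2 fold changes of -0.08 for FAC (adjusted p = 0.690) and 0.01 for oleic acid (adjusted p = 0.980). It shares 3100 exonic bases with EMG1 on the opposite strand, which averaged 46.0 CPM, and whether strand was used in counting is not given in the sources used here.

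MBOAT7 (chr19:54173412-54189882, minus strand) had 62.3, 61.5 and 62.8 CPM with oleic acid + FAC, 53.4, 51.5 and 60.1 CPM with oleic acid, 52.6, 50.0 and 51.7 CPM with FAC and 65.4, 49.0 and 47.1 CPM with vehicle. The oleic acid + FAC libraries lay above both the oleic acid and the FAC libraries, while replicate 1 of vehicle was the highest of all. For oleic acid + FAC against FAC the log2 fold change was 0.27 (SE 0.126, unadjusted p = 0.0486, adjusted p = 0.707). Averaged, it was 0.06 for FAC (adjusted p = 0.756) and 0.15 for oleic acid (adjusted p = 0.688).

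ACSL1 (chr4:184755595-184826818, minus strand), a synthetase of broad chain preference that serves both oxidation and triglyceride synthesis, lay between 33.0 and 45.6 CPM, with log2 fold changes of -0.15 for FAC (SE 0.0896, adjusted p = 0.335) and -0.10 for oleic acid (adjusted p = 0.708). AGPS (chr2:177392644-177559299, plus strand), the peroxisomal enzyme that forms the ether bond of plasmalogens, lay between 84.2 and 116 CPM, with -0.14 for FAC (SE 0.0956, adjusted p = 0.412) and -0.01 for oleic acid (adjusted p = 0.972). Neither gene passed, and the libraries of the groups overlapped in both averaged comparisons. AGPS shares 54 exonic bases with NFE2L2 and 220 with TTC30B on the opposite strand.

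**Figure D2:**
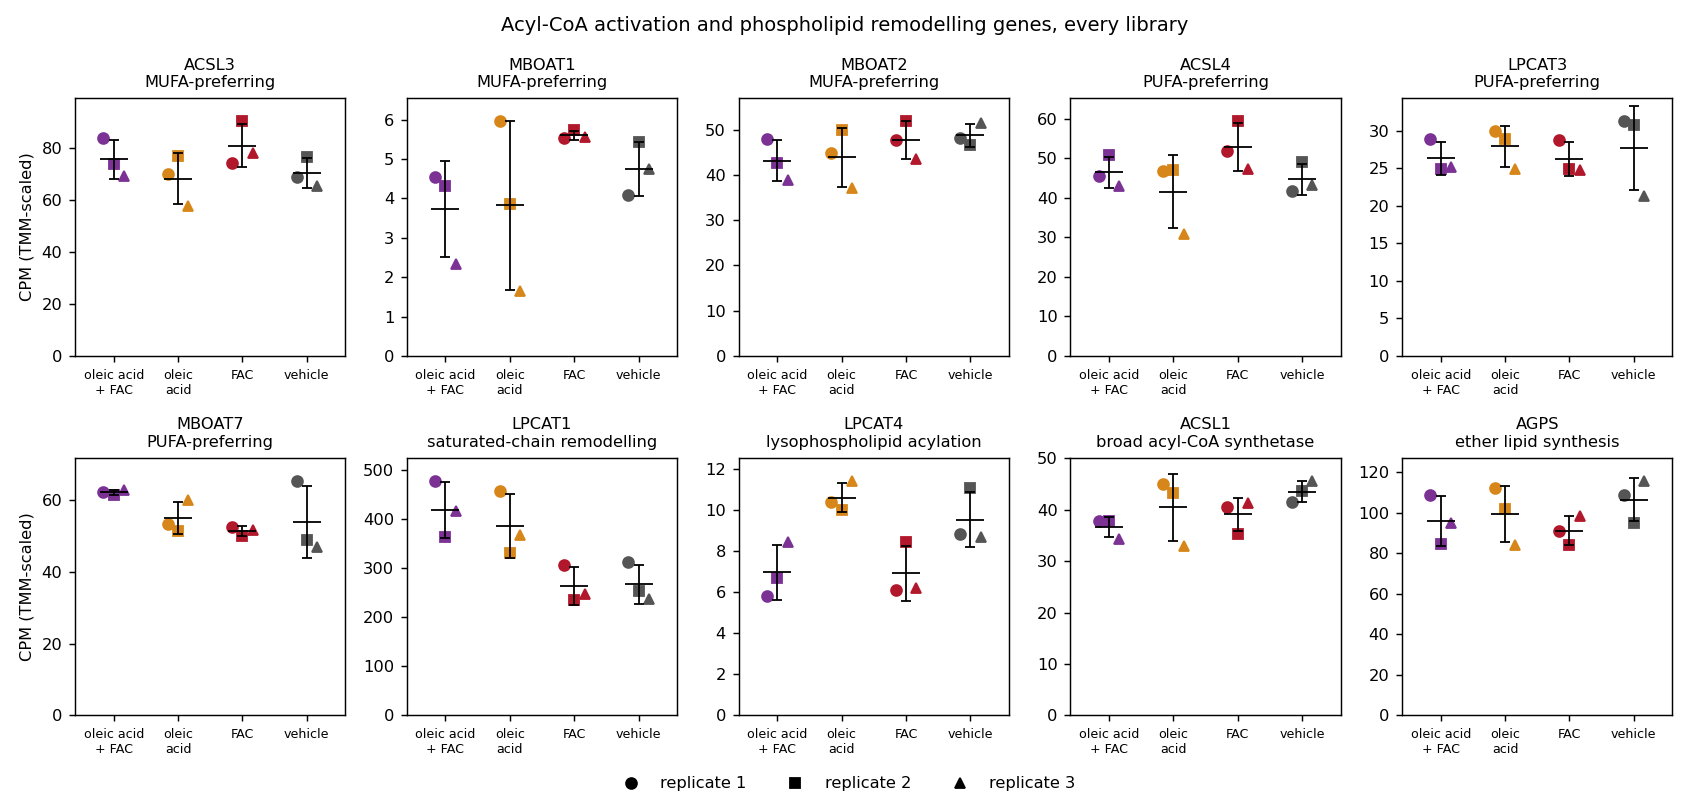
CPM of the 10 genes in each library (points, shaped by replicate number) with the mean and SD of each group (bars, n = 3), groups from left to right oleic acid + FAC, oleic acid, FAC and vehicle, each axis starting at 0. LPCAT1 is above 330 CPM in the 6 libraries given oleic acid and at most 312 CPM in the other 6; LPCAT4 is at most 8.48 CPM in the 6 libraries given FAC.

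Counted over the comparisons, 0 of the 10 genes passed for FAC against vehicle, when 1.19% of all genes did, and 0 for oleic acid + FAC against oleic acid, when 2.21% did. With the replicate block, 740 genes passed for oleic acid + FAC against oleic acid, beside 314 without it, and 0 of the 10 in either. For FAC averaged over both oleic acid states 1 of 10 passed, a share near the 8.76% of all genes. For oleic acid against vehicle edgeR, DESeq2 and limma-voom each called 0 of all genes (118 at an unadjusted p under 0.05 in edgeR). For oleic acid + FAC against FAC edgeR and limma-voom called 0 and DESeq2 called 1, none of the 10 genes (576 unadjusted). For the interaction of oleic acid and FAC each tool called 0 (116 unadjusted). With 3 libraries against 3, LPCAT4 and ACSL1 lay wholly below vehicle with FAC, as did 12.4% of all genes, and MBOAT1 wholly above, as did 10% of all genes. LPCAT4 lay wholly lower with oleic acid + FAC than with oleic acid (10.3% of all genes) and MBOAT7 wholly higher (7.85%). LPCAT1 and MBOAT7 lay wholly higher with oleic acid + FAC than with FAC (4.61%) and MBOAT1 wholly lower (5.92%), and LPCAT1 wholly higher with oleic acid than with vehicle (1.93%).

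**Figure D3:**
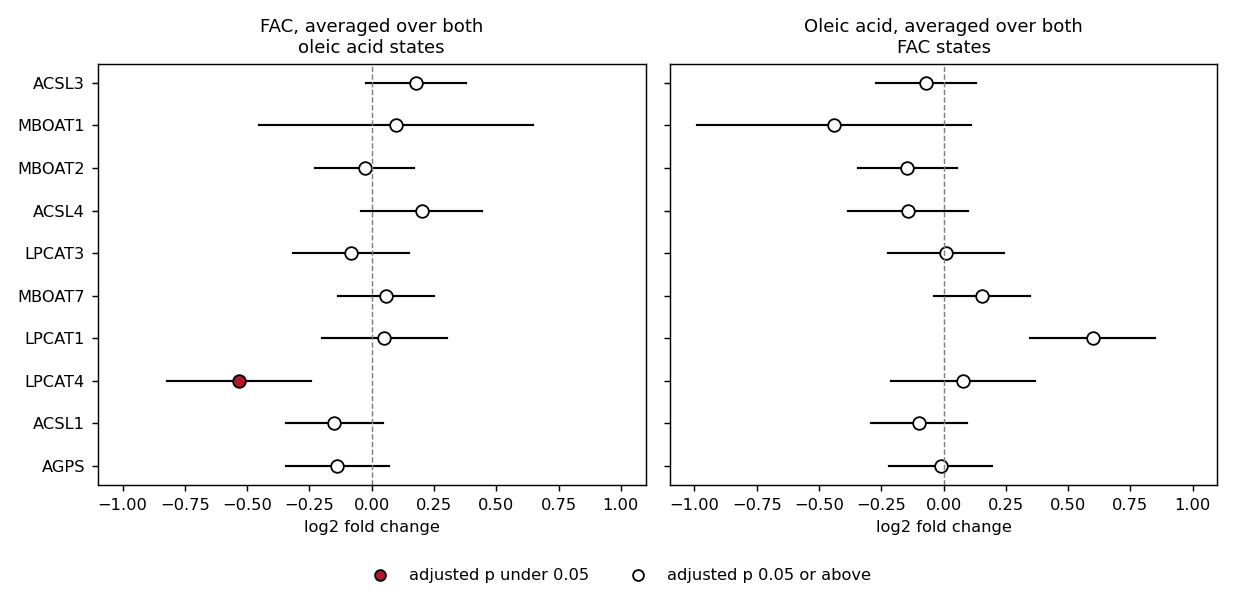
Log2 fold change (point) and 95% interval (line) of each gene for FAC averaged over both oleic acid states (left) and for oleic acid averaged over both FAC states (right); a filled point marks an adjusted p under 0.05. LPCAT4 at -0.53 on the left is the one filled point, and LPCAT1 at 0.60 on the right is the one gene there whose interval lies wholly above 0.

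The balance between the enzymes for monounsaturated chains and those for polyunsaturated chains was described as the mean log2 CPM of ACSL3, MBOAT1 and MBOAT2 minus that of ACSL4, LPCAT3 and MBOAT7. It was -0.90 ± 0.22 with oleic acid + FAC, -0.88 ± 0.31 with oleic acid, -0.57 ± 0.09 with FAC and -0.67 ± 0.20 with vehicle (SD, n = 3 each). The difference was 0.04 for FAC and -0.27 for oleic acid, each averaged over the other agent, beside a pooled SD of 0.22 within groups. The lowest values, -1.24 and -1.14, were those of replicate 3 of oleic acid and of oleic acid + FAC, where MBOAT1 was low. Without MBOAT1 the balance was 0.43 ± 0.10, 0.45 ± 0.12, 0.58 ± 0.12 and 0.54 ± 0.17 in the same order of groups.

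Gene by gene, the log2 ratio of ACSL3 to ACSL4 was 0.70 ± 0.17 with oleic acid + FAC, 0.73 ± 0.16 with oleic acid, 0.62 ± 0.10 with FAC and 0.65 ± 0.06 with vehicle. That of MBOAT2 to LPCAT3 was 0.71 ± 0.08, 0.65 ± 0.12, 0.86 ± 0.17 and 0.83 ± 0.38. The groups overlapped in both ratios, so that neither pair of enzymes separated the treatments. These ratios are of CPM and do not compare levels per length.

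**Figure D4:**
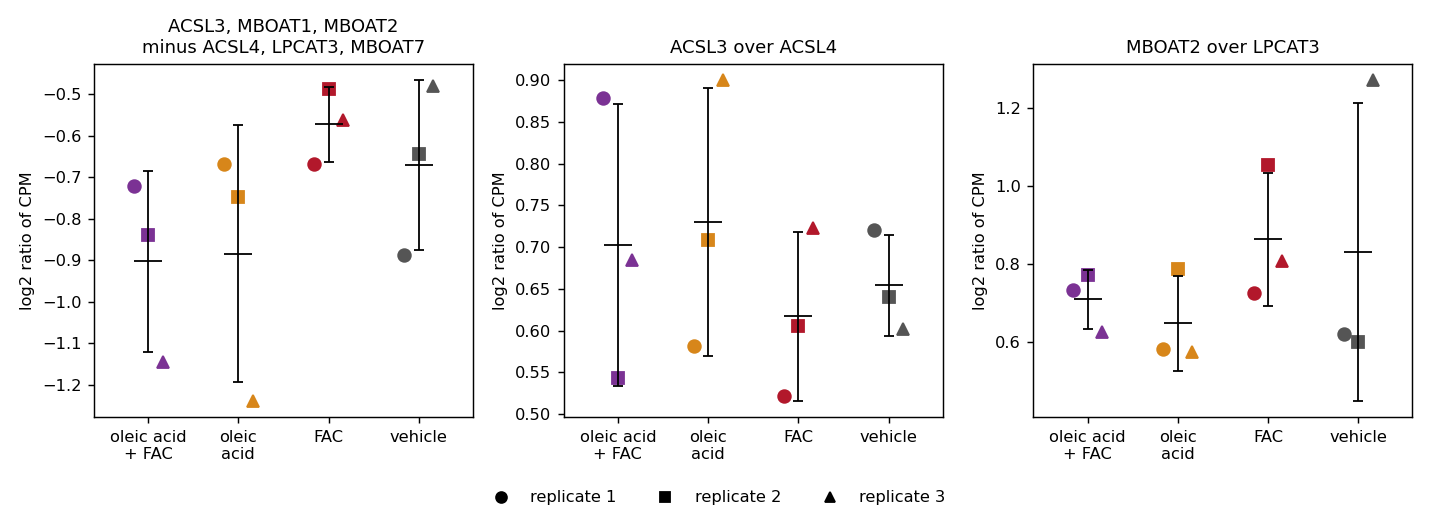
Log2 ratio of CPM in each library for the enzymes of monounsaturated over polyunsaturated chains (left), ACSL3 over ACSL4 (middle) and MBOAT2 over LPCAT3 (right), with the mean and SD of each group (n = 3) and groups from left to right oleic acid + FAC, oleic acid, FAC and vehicle. The lowest points on the left, -1.24 and -1.14, are replicate 3 of oleic acid and of oleic acid + FAC, and the axes do not start at 0.

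In ACSL4, ACSL1 and MBOAT7 the shares of single transcripts moved more than the gene totals; these transcripts were picked after their values were seen and were not tested. ENST00000469796.6, a protein-coding ACSL4 transcript, had 337, 227 and 81 counts with oleic acid + FAC, against 167, 120 and 0 with oleic acid, and 371, 302 and 241 counts with FAC, against 0, 25 and 167 with vehicle. For how many transcripts the groups lie as far apart was not counted. The counts of this transcript, not scaled for library size, ran from 0 to 167 within vehicle and within oleic acid. Its share of the ACSL4 count was 27.2% ± 14.9 with oleic acid + FAC, 11.5% ± 10.6 with oleic acid, 34.6% ± 10.6 with FAC and 8.08% ± 11.5 with vehicle, and ENST00000348502.10 held most of the rest. For MBOAT7, the protein-coding ENST00000245615.6 took 51.6% ± 9.96 with oleic acid + FAC, 32.7% ± 5.34 with oleic acid, 46.6% ± 13.4 with FAC and 31.3% ± 6.85 with vehicle, beside 32.2%, 45.9%, 38.8% and 46.9% for the retained-intron transcript ENST00000494142.1. For ACSL1, the leading mRNA ENST00000281455.7 held 32 of 484 counts in replicate 3 of oleic acid + FAC and 133 of 442 in replicate 3 of oleic acid. Its mean share was 52.3% ± 40.2 with oleic acid + FAC, 65.5% ± 30.8 with oleic acid, 72.3% ± 11.7 with FAC and 79.0% ± 4.66 with vehicle. A shift in these 2 libraries was not particular to ACSL1. There ENST00000637633.1 of AGPS had 10 and 15 counts, against 309 and 185 in replicates 1 and 2 of oleic acid + FAC and 324 and 345 in those of oleic acid. ENST00000392066.7 of ACSL3 had 251 and 252, against 794 and 702, and 645 and 760. Other transcripts were high there, such as ENST00000503407.5 of ACSL1 with 287 and 211.

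Around these 10 genes, 3 of 22 tested genes of glycerophospholipid synthesis fell with FAC averaged over both oleic acid states, PCYT1A, PCYT2 and GPAT4, and 0 rose. Of all genes tested, 5.48% were called as lower and 3.27% as higher in this comparison. The median log2 fold change was -0.13 for the list and 0.0045 over all genes. PCYT1A, the rate-limiting enzyme of phosphatidylcholine synthesis, averaged 35.2 ± 0.680 CPM with oleic acid + FAC, against 47.3 ± 2.42 with oleic acid, and 38.3 ± 0.401 CPM with FAC, against 51.2 ± 6.90 with vehicle, a log2 fold change of -0.42 (adjusted p = 0.00523). PCYT2, its counterpart for phosphatidylethanolamine, fell by 0.40 (adjusted p = 0.0240), and GPAT4, which acylates glycerol 3-phosphate, by 0.31 (adjusted p = 0.0207). PCYT2 shares 1941 exonic bases with NPB, which averaged 1.29 CPM, and GPAT4 shares 729 with an antisense RNA.

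In each of the other lists 0 to 2 genes passed in the same comparison, in which 8.76% of all genes did. Of 12 tested acyl-CoA synthetases 0 rose and 1 fell, SLC27A4, a fatty acid transport protein with synthetase activity (-0.35, adjusted p = 0.0149), with a list median of -0.04. Of 15 lysophospholipid acyltransferases 0 rose and 1 fell, LPCAT4 itself, with a median of -0.02. Of 20 phospholipases A and lysophospholipases, which free acyl chains from phospholipids, 1 rose and 1 fell: PNPLA8, a calcium-independent phospholipase A2 (0.49, adjusted p = 0.0116), and PAFAH2, which removes short or oxidised chains (-0.57, adjusted p = 0.0175), with a median of -0.03. PNPLA8 shares 177 exonic bases with THAP5 on the same strand. Of 12 genes of ether lipid synthesis 0 rose and 1 fell, FAR1, which makes the fatty alcohol that AGPS uses (-0.41, adjusted p = 0.0384), with a median of -0.07. None of 5 desaturases and none of 12 acyl-CoA thioesterases and binding proteins passed, with medians of 0.13 and 0.08. In the other 6 comparisons 0 genes of these lists passed in edgeR. Leaving out 1 library ended some of these calls. Of the 12 fits that each left out 1 library, FAR1 passed in the 3 without replicate 3 of oleic acid + FAC, replicate 3 of oleic acid or replicate 2 of FAC, and did not pass in the other 9 (adjusted p up to 0.105). PCYT2 did not pass without replicate 1 of oleic acid + FAC, 2 of oleic acid, 1 or 3 of FAC or 2 or 3 of vehicle (adjusted p up to 0.0708). GPAT4 did not pass without replicate 1 of oleic acid, 1 or 3 of FAC or 2 of vehicle (up to 0.0631), nor PAFAH2 without replicate 2 of vehicle (0.0504). GPAT4 also did not pass without the filter on low counts (adjusted p = 0.0536).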

How the data were processed

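Libraries of HEK293 cultures were poly-A selected from total RNA, per the labels. Per the submitters' processing notes, reads were demultiplexed with bcl2fastq 2.19 and processed with kallisto 0.46.1 and sleuth 0.30.0 against GRCh38.p12 (hg38). The deposited tables hold expected counts (estimated counts of kallisto) per gene symbol and per transcript. These are whole numbers, which rounding left as they are, and carry no estimate of the error in dividing reads among transcripts.

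Genes were kept by filterByExpr of edgeR 4.0.16 (R 4.3.3) at its default settings (minimum count 10, minimum total 15), scaled by TMM (trimmed mean of M values), and fitted in 1 quasi-likelihood model over all 12 libraries with a mean per group. Contrasts were tested two-sided, and p-values adjusted by Benjamini-Hochberg over all genes tested, with 0.05 as threshold. The average of a treatment is the mean of its effects in both states of the other, and CPM are TMM-scaled. TPM used count-weighted transcript lengths of GENCODE 29 (GRCh38), to which 89.9% of 188753 transcripts were matched. Alternatives used DESeq2 1.42.0, limma-voom (limma 3.58.1), other scaling, filters and sets of libraries. The edgeR fit without the block was tested on simulated counts, for FAC against vehicle and for both averaged comparisons. The other tools, settings and descriptions were not. The simulated counts were drawn independently for each library, without the likeness of same-numbered libraries or the shift with transcript length. That test therefore does not cover these features of the data. The 10 genes, the gene lists around them and the libraries left out were chosen with earlier results of these data known. Named beyond the 10 were TFRC, PLIN2 and up to 4 genes of each list past the threshold, those with the largest change. The balance and transcript shares are descriptions without a test. The sleuth output was not used here.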

Additional observations from a re-analysis of the deposited data

How the results depend on the processing

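LPCAT4 passed for FAC averaged over both oleic acid states under each of the 8 alternatives in scaling, test, filter, block, length trend and the 2 libraries left out, while the number of the 10 genes called was 0 to 1 with single libraries left out. The library titles carry replicate numbers, but no label says what libraries of the same number shared. Of 18 same-numbered pairs 13 deviated together (r over 0.1, range -0.08 to 0.58). A library correlated best with its own number in 27 of 36 comparisons, each a choice among the 3 libraries of another group. The deviations are from group means and depend on one another within a group, so these comparisons are not independent. In each comparison of 2 groups without vehicle all 3 pairs were over 0.1, and with vehicle not all were. The main fit leaves out this likeness of same-numbered libraries, and the fit that uses it, the replicate block, is given as an alternative. With it LPCAT1 was the 1 gene called for oleic acid averaged over both FAC states (0.60, adjusted p = 0.0125); DESeq2 called 1 of the 10 genes there, again LPCAT1, of 3 genes in all, and the length trend removed with the replicate block called 1, LPCAT1 (adjusted p = 0.00266), of 1058 genes. That last setting also called 1 of the 10 genes for oleic acid + FAC against oleic acid (LPCAT4) and 1 for oleic acid + FAC against FAC (LPCAT1, adjusted p = 0.0178). For FAC averaged over both oleic acid states it called 3 (LPCAT4, ACSL3 at 0.0419 and ACSL4 at 0.0215). The length trend was fitted in each library to deviations from the mean of its own group, with no degrees of freedom charged. Its removal narrows the spread within groups while group differences largely stay. More calls are thus built into any setting with the trend removed, and they are no separate support. What else adds to them was not tested. The replicate block changed no other call among the 10 genes. With single libraries left out LPCAT1 kept a log2 fold change of 0.53 to 0.66 with oleic acid and never passed in edgeR.

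Counts over all genes moved more. For FAC against vehicle (169) they were 505 in DESeq2, 431 with the replicate block, 428 with the length trend removed, 1078 with both, 672 without replicate 3 of oleic acid and of oleic acid + FAC, 351 with the 6 libraries compared alone and 27 to 79 with single libraries left out. For oleic acid + FAC against oleic acid (314) they were 775 in DESeq2, 740 with the replicate block, 946 with the length trend removed, 2368 with both, 19 with the 6 libraries alone and 55 to 449 with single libraries left out. For FAC averaged (1244) they were 2211 with the replicate block, 2384 with the length trend removed, 3872 with both, 2143 without the 2 libraries and 738 to 1810 with single ones left out. For oleic acid + FAC against FAC (0) DESeq2 called 1 and the length trend removed with the replicate block 703.

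Some small log2 fold changes turned sign. LPCAT1 counted as 2 leading transcripts gave -0.063 for FAC (-0.093 with the replicate block) and -0.078 for the interaction (-0.12), and protein-coding LPCAT4 gave 0.42 for the interaction (0.43). Without replicate 3 of both oleic acid groups the effect of oleic acid was -0.035 for LPCAT4, 0.0055 for ACSL3 and 0.037 for AGPS. With single libraries left out, FAC averaged ranged from -0.014 to 0.12 for LPCAT1, -0.082 to 0.022 for MBOAT2 and -0.073 to 0.33 for MBOAT1. Oleic acid averaged ranged from -0.069 to 0.057 for LPCAT3 and -0.061 to 0.040 for AGPS, and the LPCAT4 interaction from -0.30 to 0.026.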
